A study of Mus musculus with 10 samples.

Results

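Forkhead box (Fox) genes encode transcription factors that share a winged-helix DNA-binding domain. The members were all genes of the deposited count table whose symbol is Fox followed by 1 letter and a number, which gave 44 genes of 33006. The study asks what loss of NPM1, a histone chaperone concentrated in the nucleolus, does to repressed chromatin as cells pass through S phase. The cells were E14 mouse embryonic stem cells whose NPM1 carries an auxin-inducible degron, so that auxin leads to its destruction, and the file headers name a single clone. RNA was measured in 2 libraries of NPM1-degradable cells released from G1 for 12 h with auxin and in 2 libraries of the same cells released for 12 h without auxin. H3K27me3 was mapped in 1 ChIP-seq sample at 6 h without auxin and in 1 CUT&RUN control sample at 12 h; CUT&RUN cuts and releases the DNA under an antibody instead of precipitating it. The culture medium of every group held LIF (leukemia inhibitory factor), PD0325901 at 1 µM, which blocks MEK, and CHIR99021 at 3 µM, which blocks GSK3. Of the chromatin samples, input, IgG and those treated with auxin, alone or with a PRC2 inhibitor, were not analysed here.

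Fox proteins bind related DNA sequences, often TGTTTAC, and differ in where and when they are made. Some act in many cell types, such as Foxm1 in the cell cycle, Foxo1 and Foxo3 downstream of insulin and AKT, and the Foxk repressors. Many others are switched on in particular embryonic tissues, such as Foxa2 in endoderm or Foxe1 in the thyroid. H3K27me3, which Polycomb repressive complex 2 writes, covers many developmental regulators in embryonic stem cells while they are not transcribed.

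The libraries held 13353446 and 16046290 counted fragments with auxin and 14789851 and 15183126 without auxin. Mitochondrial transcripts took 4.96% and 3.46% of fragments with auxin and 4.06% and 3.52% without. The 14 pluripotency markers all passed the expression filter. They summed to 8106 and 7946 CPM (counts-per-million fragments, scaled by library size) with auxin and 8850 and 8800 CPM without auxin. Of them 9 fell (64.3%) and 2 rose (14.3%), at edgeR adjusted p under 0.05, beside 14.5% and 13.0% of all tested genes. The fibroblast feeder list summed to 16.9 and 23.5 CPM with auxin and 10.5 and 12.5 CPM without, with Fap at 0 in every library and 8 of its 12 genes under 1 CPM. Of its 5 tested genes 1 rose, Pdgfrb, with 9.0 and 15.2 CPM with auxin against 3.16 and 5.76 CPM without auxin (log2 fold change 1.45, edgeR adjusted p = 0.00313; DESeq2 adjusted p = 0.0521). The part of the feeder genes in the results was not tested. Npm1 mRNA, which the degron does not target, had 843 and 767 CPM with auxin and 1058 and 951 CPM without auxin (log2 fold change -0.32, edgeR adjusted p = 0.00337). No label says whether the libraries of a group came from separate cultures, so p-values measure the spread between libraries, which may be technical.

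Levels in the family ranged from clear transcription to almost none. Of the 44 genes, 25 passed the expression filter, which asks for about 10 fragments in a library of median size in 2 libraries, and 19 did not. Levels between genes were compared per transcript length, as CPM per kilobase of exon. The filter cut through a graded range, since Foxe1, tested, had a mean of 0.159 without auxin and Foxf1, not tested, 0.129. On this scale Foxp4, a repressor of the Foxp group active in lung and gut epithelium, was highest, at 51.8 in one auxin library and 51.7 in the other, against 70.3 and 67.2 without auxin. Foxd1, known from the stroma of the developing kidney, came next, at 44.7 and 43.1 with auxin against 58.9 and 56.1 without auxin. Foxh1, the SMAD partner through which Nodal and activin act, had 46.8 and 41.8 with auxin against 43.7 and 42.8 without auxin. The first 2 of these genes were lower in both auxin libraries, and the ranges of Foxh1 overlapped.

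Foxo3, a stress and quiescence factor of the Foxo group, followed at a per-length level of 41.0 and 47.1 with auxin against 34.8 and 39.6 without auxin. Without auxin, the mean per-length level was 24.2 for Foxm1, which drives G2 and mitotic genes, 21.4 for Foxd3, a regulator of the epiblast and the neural crest, and 20.4 for Foxk2. Below them came Foxo4 at 15.5, Foxi3 at 11.1, Foxo1 at 9.96, Foxk1 at 8.61, Foxn2 at 7.72 and Foxj3 at 5.87. Among neighbours in the order without auxin, the ranges of the 2 libraries overlapped for Foxd3 and Foxk2, Foxi3 and Foxo1, Foxj1 and Foxn4, and Foxa1 and Foxq1; the other neighbours named here did not overlap. With auxin Foxp4 was still highest, and the ranges of Foxh1, Foxo3 and Foxd1 overlapped.

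**Figure D1:**
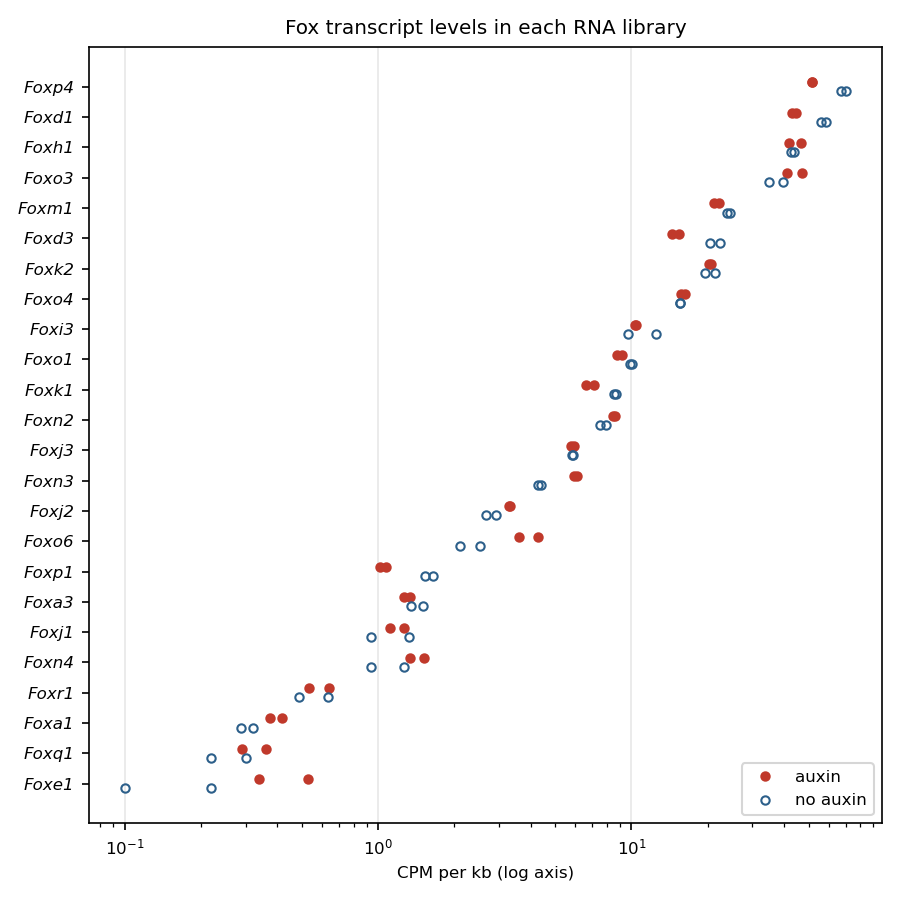
Level of 24 of the 25 tested Fox genes, in CPM per kilobase on a log axis, with filled points for the auxin libraries and open points for the libraries without auxin. Genes run from Foxp4, with a mean of 68.7 without auxin, down to Foxe1, with 0.159.

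The 19 genes that the filter left out together took 35 and 85 fragments in the auxin libraries, against 41 and 31 without auxin. The second auxin library was highest, while the first lay between the libraries without auxin. Foxb1, which acts in the hypothalamus, Foxe3 of the lens, Foxi1 of the inner ear and kidney, Foxl1 of the gut mesenchyme and Foxs1 had 0 fragments in all 4 libraries. A count of 0 allows up to 3 fragments, or 0.221 and 0.178 CPM in the auxin libraries and 0.211 and 0.203 CPM without auxin, and covers counting error only. The mesoderm and vessel factor Foxc1 had 5 and 16 fragments with auxin and 4 and 5 without, and its neighbour in function Foxc2 had 3 and 12 with auxin and 5 and 4 without. Foxd2 had 8 and 13 fragments with auxin against 5 and 3 without auxin. Foxl2, a factor of ovarian granulosa cells, had 7 and 10 with auxin against 1 and 5 without auxin. The groups did not overlap for Foxd2 and Foxl2, touched at 5 fragments for Foxc1, and overlapped for Foxc2. Foxa2, the endoderm and notochord pioneer factor, had 3 and 11 with auxin against 4 and 3 without auxin, which overlap. Over the 19 genes, CPM values with auxin lay above those without auxin for 4 (Foxc1, Foxd2, Foxl2 and Foxn1, the factor of thymus and hair), below for 2 and overlapped for 13. Of the 6293 genes below the filter with at least 1 fragment, 19.1% lay above and 8.85% below, and 14 of the 19 Fox genes had at least 1 fragment.

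**Figure D2:**
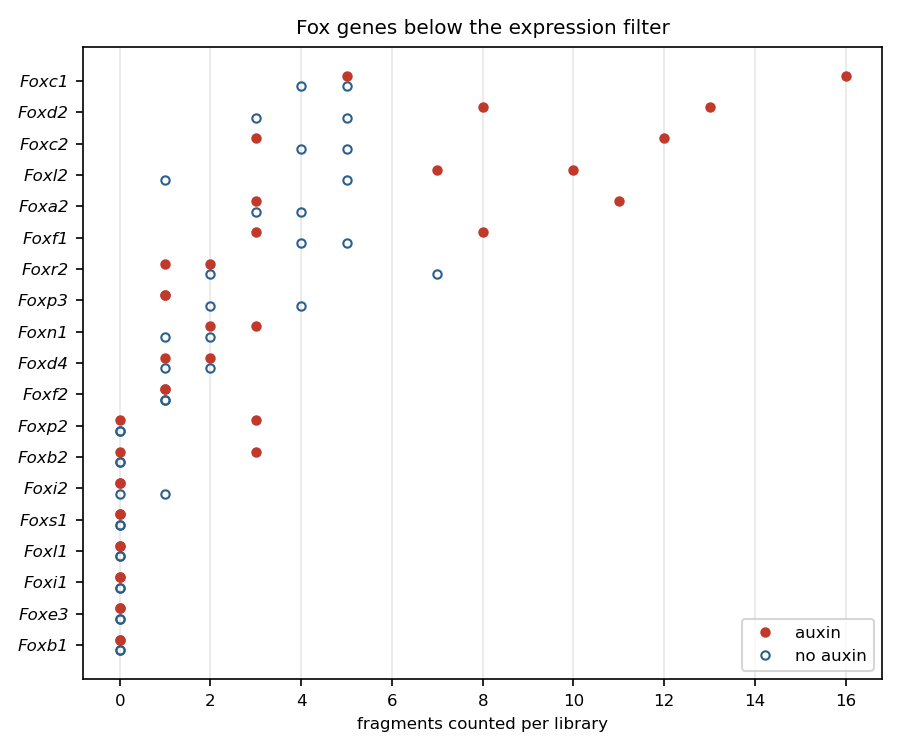
Fragments counted per library for the Fox genes below the expression filter, with filled points for auxin and open points for no auxin. The highest points are those of Foxc1, Foxd2, Foxc2 and Foxa2 in the second auxin library, at 16, 13, 12 and 11 fragments.

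H3K27me3 peaks of the ChIP-seq sample without auxin and of the CUT&RUN control sample lay mainly at the weakly transcribed members. A gene was called marked when a deposited broad peak overlapped the window from 1 kb before to 1 kb after its 5′ end. ChIP-seq peaks marked 16 of 44 Fox genes (36.4%), beside 9.09% of all 32968 placed genes. CUT&RUN peaks marked 13 of 44 (29.5%), beside 13.2% of all genes. The lists came from different assays and times, and in this window they did not name the same genes. Both lists marked 7 (15.9%, beside 5.95%), which were Foxb2, Foxe3, Foxi1, Foxi2, Foxl1, Foxq1 and Foxs1. Either list marked 22 of 44 (50.0%, beside 16.4%). With 2 kb on either side, both lists marked 15 of the 26 Fox genes that either list marked, beside 3028 of 6854 among all genes. With 1 kb and a −log10 q of at least 3, 0 Fox genes were marked in both lists, beside 0.0698% of all genes. These are counts over 1 sample per assay, with no test.

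Foxb1, Foxc2, Foxd2, Foxd4, Foxe1, Foxf1, Foxf2, Foxn4 and Foxp1 were marked by ChIP-seq alone, and Foxa1, Foxa2, Foxc1, Foxl2 and Foxn1 were among those marked by CUT&RUN alone. None of the Foxh, Foxj, Foxk, Foxm, Foxo or Foxr genes was marked. Of the 23 Fox genes under 1 CPM without auxin, 19 were marked (82.6%), while 4279 of all 20420 genes under 1 CPM were (21.0%). The 20420 include noncoding and predicted genes, so these shares are over unlike kinds of gene. Of the 21 Fox genes at 1 CPM or more, 3 were marked (14.3%, beside 8.89% of all such genes), among them Foxp1 and Foxn4, a factor of retinal progenitors. The 4 unmarked genes under 1 CPM were Foxp2, Foxp3, Foxr1 and Foxr2. Within 5 kb of the 5′ end, a window chosen after seeing the data, 21 of the 23 had a peak, beside 32.8% of all genes under 1 CPM, and Foxp3 and Foxr2, both X-linked, had none.

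**Figure D3:**
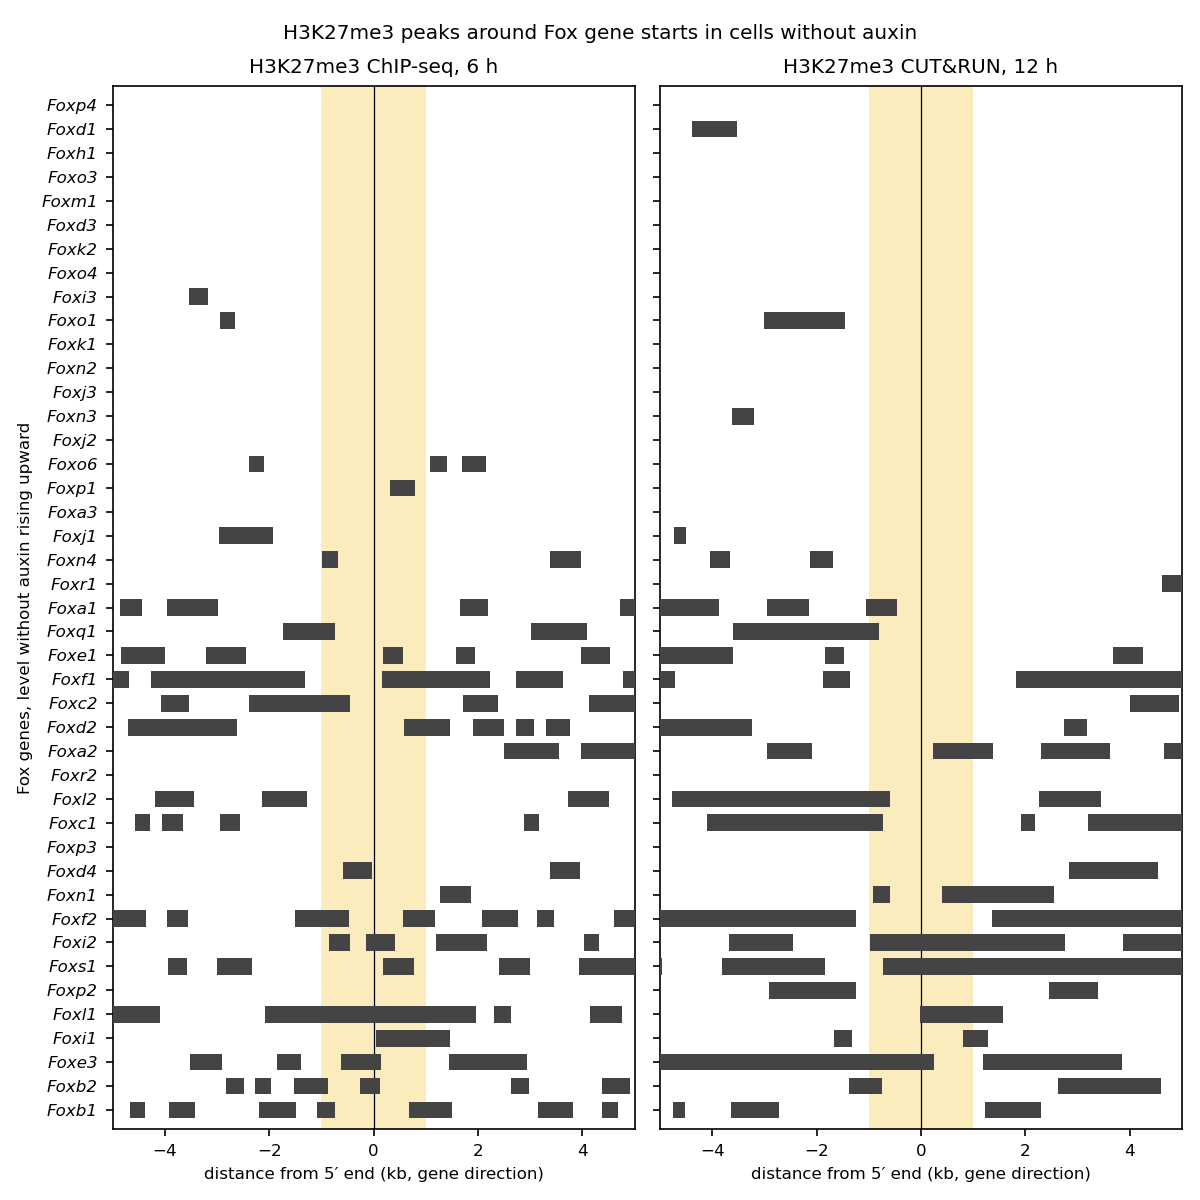
H3K27me3 peaks within 5 kb of the 5′ end of 43 of the 44 Fox genes, against the distance in gene direction. The left panel is ChIP-seq without auxin and the right panel the CUT&RUN control. Genes are ordered by level without auxin, highest at the top, and the shaded band is the window of 1 kb on either side. The ChIP-seq and CUT&RUN bars crowd into the lower rows, and of the genes drawn at 1 CPM or more, Foxp1 and Foxn4 have a bar in the band.

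Peak widths, −log10 q values and fold enrichments are the authors' own values per peak. At the 5′ end of Foxe3 (chr4:114925076-114926052, mm10, minus strand) the CUT&RUN peak was 9082 bp wide, with a −log10 q of 2.06 and a fold enrichment of 3.35. The CUT&RUN peak over Foxs1 (chr2:152931898-152933208, minus strand), a forkhead gene of pericytes, was 8813 bp wide with a −log10 q of 2.73. The widest ChIP-seq peak at a Fox 5′ end, 4037 bp, lay at Foxl1 (chr8:121127940-121130644, plus strand). The peak at Foxp1 (chr6:98925338-99522721, minus strand), the most transcribed marked member in CPM, was 465 bp wide, and at Foxn4 it was 297 bp.

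Several marked members are neighbours, and peaks covered much of the ground between them. Foxf1, Foxc2 and Foxl1 (chr8:121084386-121130644), all factors of mesoderm and mesenchyme, lie within 46259 bp, of which ChIP-seq peaks covered 38.3% and CUT&RUN peaks 19.9%. All ChIP-seq peaks on the chromosome covered 2.06% of it and all CUT&RUN peaks 4.20%. A chromosome was measured here from its first to its last placed gene. Foxd2 and Foxe3 (chr4:114906280-114926052) span 19773 bp, with 34.8% under ChIP-seq peaks and 43.8% under CUT&RUN peaks, beside 1.45% and 4.15% of the chromosome. Foxq1, known from hair structure, and Foxf2 (chr13:31558170-31631403) span 73234 bp, with 12.8% and 29.8% covered, beside 0.517% and 2.92%. Neighbouring genes share peaks, so these members are not independent observations of the mark.

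Promoter sequence was compared because CpG content goes with Polycomb marking in embryonic stem cells. RefSeq promoter entries (GRCm38.p6, 250 bases before to 50 after the start) were found for 28 of the 44 genes. Their 33 entries had a median CpG ratio, observed over expected from base composition, of 0.680, beside 0.384 over 32851 entries of all genes. Of the 33, 21 (63.6%) reached 0.6, beside 35.8%. Many of the 32851 entries lie near no 5′ end in the count table. Among genes with an entry starting within 1 kb of that end, 17 Fox genes reached 0.6 and 9 did not. Over all such genes 7927 reached it and 7872 did not, a smaller difference than over all entries. The first 3 promoters below belong to transcribed, unmarked members (Foxp4, chr17:47924583-47924882, minus strand; Foxd1, chr13:98353995-98354294, plus strand; Foxd3, chr4:99656049-99656348, plus strand). The next belongs to Foxd2 (chr4:114908849-114909148, minus strand), a marked and nearly silent relative of Foxd1 and Foxd3. The last 2 are CpG-poor, Foxi2 being marked in both lists (chr7:135410117-135410416, plus strand) and Foxr2 having no peak within 5 kb (chrX:153118538-153118837, plus strand). Capitals mark CpG dinucleotides, which number 33, 15, 25, 26, 5 and 3 in this order.
Foxp4: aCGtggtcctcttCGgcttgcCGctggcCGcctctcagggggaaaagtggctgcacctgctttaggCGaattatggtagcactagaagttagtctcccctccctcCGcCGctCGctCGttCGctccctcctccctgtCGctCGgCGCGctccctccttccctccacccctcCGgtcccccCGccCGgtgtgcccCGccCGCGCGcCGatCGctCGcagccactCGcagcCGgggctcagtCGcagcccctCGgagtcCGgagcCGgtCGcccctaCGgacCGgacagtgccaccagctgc
Foxd1: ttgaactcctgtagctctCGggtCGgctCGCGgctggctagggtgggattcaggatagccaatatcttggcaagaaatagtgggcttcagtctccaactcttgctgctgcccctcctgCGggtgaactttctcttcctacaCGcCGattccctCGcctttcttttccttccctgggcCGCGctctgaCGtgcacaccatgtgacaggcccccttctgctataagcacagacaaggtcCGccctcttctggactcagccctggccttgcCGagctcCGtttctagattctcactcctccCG
Foxd3: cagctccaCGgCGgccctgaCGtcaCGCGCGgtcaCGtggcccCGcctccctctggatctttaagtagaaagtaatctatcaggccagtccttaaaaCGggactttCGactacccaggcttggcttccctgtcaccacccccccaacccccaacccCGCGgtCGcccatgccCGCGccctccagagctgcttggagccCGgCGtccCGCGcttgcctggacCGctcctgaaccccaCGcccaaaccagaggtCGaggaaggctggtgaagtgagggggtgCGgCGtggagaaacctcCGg
Foxd2: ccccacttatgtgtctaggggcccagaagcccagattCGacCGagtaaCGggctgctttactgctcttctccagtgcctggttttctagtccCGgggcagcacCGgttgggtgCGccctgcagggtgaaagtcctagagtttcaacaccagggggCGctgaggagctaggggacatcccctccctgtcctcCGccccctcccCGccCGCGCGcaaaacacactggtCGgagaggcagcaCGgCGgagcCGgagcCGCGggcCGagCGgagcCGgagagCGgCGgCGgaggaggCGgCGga
Foxi2: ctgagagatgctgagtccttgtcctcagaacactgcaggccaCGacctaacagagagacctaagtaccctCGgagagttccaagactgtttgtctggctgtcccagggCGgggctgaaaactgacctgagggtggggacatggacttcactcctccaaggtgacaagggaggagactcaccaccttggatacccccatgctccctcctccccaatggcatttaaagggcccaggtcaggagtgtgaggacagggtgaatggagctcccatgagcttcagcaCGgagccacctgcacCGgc
Foxr2: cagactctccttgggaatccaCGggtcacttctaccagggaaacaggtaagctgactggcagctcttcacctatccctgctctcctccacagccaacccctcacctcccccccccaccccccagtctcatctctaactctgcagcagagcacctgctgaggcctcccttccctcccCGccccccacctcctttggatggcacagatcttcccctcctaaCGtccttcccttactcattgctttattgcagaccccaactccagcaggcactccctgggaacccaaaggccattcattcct

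The CpG ratio was 0.62 for Foxd1, 0.79 for Foxd3 and 0.76 for Foxd2, so the marked relative lay between the unmarked ones. Among members whose entry starts within 1 kb of the 5′ end of the table, the median ratio was 0.667 for 13 marked genes and 0.793 for 13 unmarked genes, and 0.288 for 4 genes marked in both lists. Over all genes with such an entry, the medians were 0.446 for 2806 marked and 0.639 for 12993 unmarked genes. Marked genes thus had the lower median in both sets, but these medians mix levels. At 1 CPM or more without auxin were 13.6% of marked and 81.8% of unmarked Fox genes, beside 20.7% and 41.5% of all genes. Under 1 CPM, the higher ratio went with the larger marked share, as the next values show. Of 7 Fox genes with a ratio of at least 0.6 and under 1 CPM, 6 were marked (85.7%, beside 46.6% of all such genes). Of 8 with a lower ratio and under 1 CPM, 6 were marked (75.0%, beside 25.8%). The marked, weakly transcribed members included both CpG-rich and CpG-poor promoters.

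**Figure D4:**
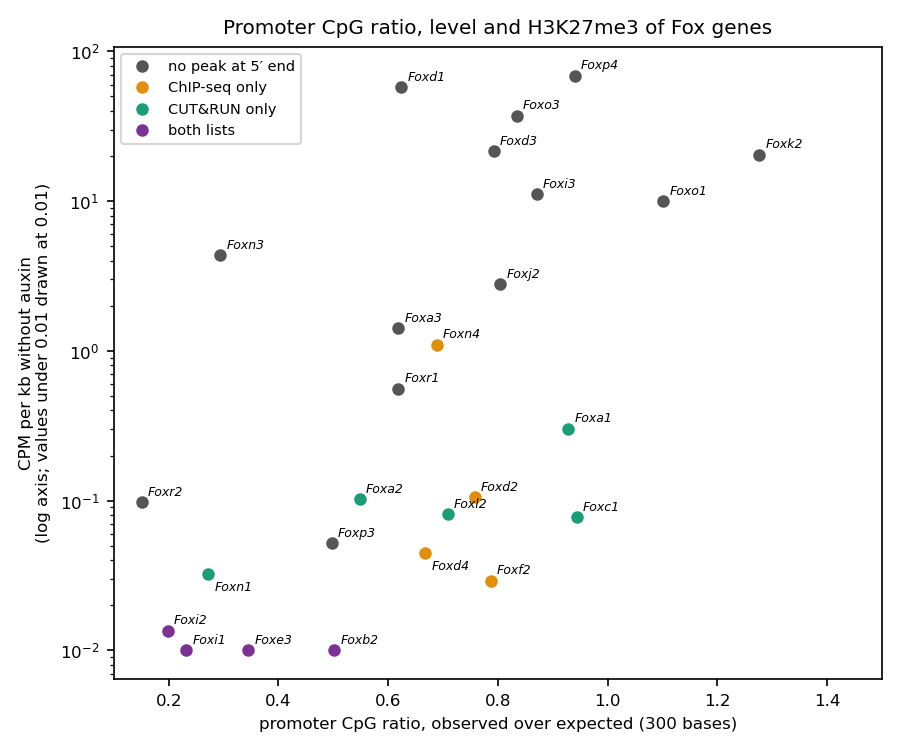
Promoter CpG ratio (horizontal) against the level without auxin in CPM per kilobase (vertical, log axis) for the 26 Fox genes with a promoter entry near their 5′ end, coloured by H3K27me3 peaks. The 4 genes marked in both lists sit at the bottom left, at ratios between 0.20 and 0.50, and Foxn3 stands unmarked at a ratio of 0.29 and a level of 4.34.

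The forkhead motif TGTTTAC was searched on both strands. It occurred in 1 of 33 Fox entries (3.03%), beside 3.65% of all entries, and the shorter TGTTTA, which it contains, in 5 (15.2%, beside 13.4%). These 5 entries belong to 3 genes, with 3 of them from Foxp1. The single entry is that of Foxa1, a pioneer factor of endoderm (chr12:57546062-57546361, minus strand), where the motif, in capitals, lies on the opposite strand from position -141 relative to the start.
Foxa1: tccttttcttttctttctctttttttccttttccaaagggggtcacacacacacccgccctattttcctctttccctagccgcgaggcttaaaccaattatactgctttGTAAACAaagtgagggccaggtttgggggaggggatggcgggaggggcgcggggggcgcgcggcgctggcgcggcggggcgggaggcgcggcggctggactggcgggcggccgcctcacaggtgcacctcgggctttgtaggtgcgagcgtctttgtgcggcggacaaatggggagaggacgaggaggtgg

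Auxin changed 8 of the 25 tested Fox genes, by modest amounts. Foxo3, Foxn3 and Foxo6 rose, and Foxp1, Foxd3, Foxp4, Foxd1 and Foxk1 fell (edgeR quasi-likelihood test, Benjamini-Hochberg adjusted p under 0.05 over 13522 genes). The 3 rises are 12.0% of those tested, beside 13.0% of all genes, and the 5 falls are 20.0%, beside 14.5%; in either direction 27.5% of all genes were called, so the family's share of calls was close to that of all genes. The median log2 fold change was 0.040 for the Fox genes and 0.013 for all genes tested. CPM values of auxin lay above those without auxin for 10 Fox genes (33.0% of all genes did so), below for 8 (31.8%), and overlapped for 7. Without replicate 1 of the libraries without auxin, the counts over all genes were 1102 higher and 1110 lower, against 1759 and 1964 with every library, and the Fox counts were 2 and 5. Without replicate 2 of that group, 5 Fox genes rose. The RNA came from bulk cultures, where fewer cells of a type and less RNA per cell cannot be told apart.

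**Figure D5:**
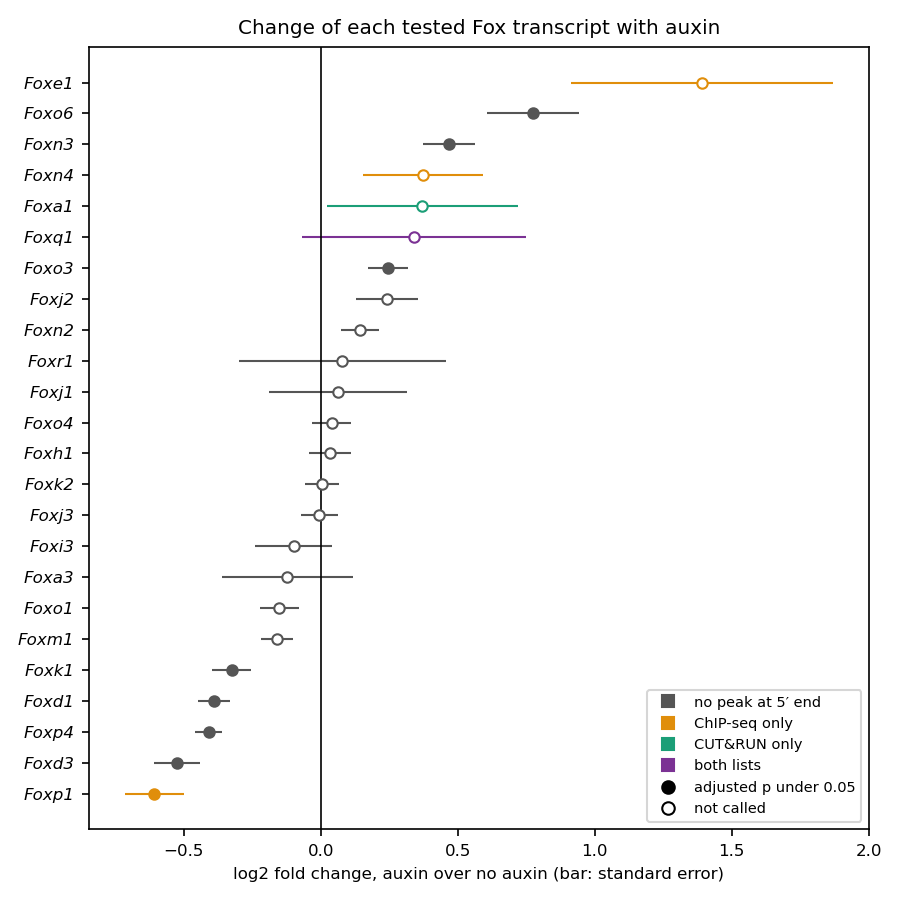
Log2 fold change, auxin over no auxin, of 24 of the 25 tested Fox genes, with bars for the standard error, filled points for adjusted p under 0.05 and colours for H3K27me3 peaks. Foxe1 lies farthest right at 1.39 with a wide bar and is not called, and Foxp1 lies farthest left at -0.61.

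The falls included both transcribed Foxd genes. Foxd3 (chr4:99656299-99658671, plus strand) had 34.2 and 36.5 CPM with auxin and 48.6 and 53.2 CPM without auxin. Foxd1 (chr13:98354245-98356705, plus strand) had 109.9 and 106.0 CPM with auxin and 144.8 and 138.0 CPM without auxin. Both genes were lower in both auxin libraries with no overlap. On the log2 scale Foxd3 fell by 0.52 (SE 0.082, edgeR adjusted p = 0.00096) and Foxd1 by 0.39 (SE 0.058, edgeR adjusted p = 0.000713). Neither had a peak at its 5′ end.

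The 2 transcribed Foxp genes, which encode repressors that pair with each other, fell. Foxp4 (chr17:47867133-47924645, minus strand) had 255.1 and 254.9 CPM with auxin and 346.2 and 330.9 CPM without auxin, a log2 change of -0.41 (SE 0.049, edgeR adjusted p = 0.000189). Foxp1, which has a stem cell splice form and acts in B cell development, had 15.3 and 14.5 CPM with auxin and 21.8 and 23.5 CPM without auxin, a fall by 0.61 (SE 0.11, edgeR adjusted p = 0.00191). Neither gene's groups overlapped. With the window of 1 kb, Foxp1 was the single marked member that was called, and it fell. This depends on the window, since Foxo6, which was called higher, had a ChIP-seq peak 1080 bp from its 5′ end. Its peak was scored at the outermost annotated start, and its RefSeq promoter entries start 1728, 256206 and 494423 bp from there. Which start made the counted transcripts was not tested. Foxp2, a factor of the developing brain, had 0 and 3 fragments with auxin and 0 and 0 without, and Foxp3, which defines regulatory T cells, had 1 and 1 with auxin and 4 and 2 without.

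Foxk1 and Foxk2 encode repressors that bind SIN3 and the BAP1 deubiquitinase. Foxk1 (chr5:142401497-142462014, plus strand) had 49.3 and 53.0 CPM with auxin and 63.7 and 64.5 CPM without auxin, without overlap, and on the log2 scale fell by 0.32 (SE 0.072, edgeR adjusted p = 0.00641). Foxk2 had 106.8 and 108.8 CPM with auxin and 112.2 and 102.8 CPM without auxin, groups that overlapped, with a log2 fold change of 0.0047 (SE 0.063, edgeR adjusted p = 0.964). The difference between the changes of Foxk1 and Foxk2 was not tested.

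The rises included 2 of the 4 Foxo genes. Foxo6 (chr4:120267079-120287349, minus strand), the Foxo gene most active in brain, had 9.36 and 11.2 CPM with auxin and 6.60 and 5.49 CPM without auxin, a log2 change of 0.78 (SE 0.17, edgeR adjusted p = 0.0059). Foxo3 (chr10:42181841-42276755, minus strand) had 311 and 356 CPM with auxin and 263 and 299.6 CPM without auxin. The lower auxin library of Foxo3 stood just above the higher library without auxin, and the change was 0.25 (SE 0.074, edgeR adjusted p = 0.0291). That call was lost when no-auxin replicate 1 was left out (edgeR adjusted p = 0.214) or auxin replicate 2 (edgeR adjusted p = 0.107). Foxo1, which supports pluripotency genes, had 48.7 and 50.8 CPM with auxin and 55.6 and 55.0 CPM without auxin (log2 fold change -0.15, edgeR adjusted p = 0.137). Foxo4 had 54.6 and 56.7 CPM with auxin and 53.9 and 54.4 CPM without auxin (log2 fold change 0.040, edgeR adjusted p = 0.712). The groups did not overlap for either, but neither passed the test.

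Foxn3 (chr12:99194980-99450111, minus strand), named in human as a suppressor of checkpoint defects, had 27.5 and 28.3 CPM with auxin and 19.9 and 20.5 CPM without auxin. It was higher in both auxin libraries and on the log2 scale rose by 0.47 (SE 0.094, edgeR adjusted p = 0.00397). Its relative Foxn2 had 63.3 and 62.2 CPM with auxin and 55.1 and 58.4 CPM without auxin, higher in both, and was not called (log2 fold change 0.14, edgeR adjusted p = 0.149). Foxj2 had 17.3 and 17.5 CPM with auxin and 15.4 and 14.1 CPM without auxin and was not called (log2 fold change 0.24, edgeR adjusted p = 0.134).

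Foxm1 and Foxh1 did not pass the test. Foxm1 had 116.1 and 121.6 CPM with auxin and 131.3 and 134.4 CPM without auxin; both auxin libraries were lower, and the log2 fold change was -0.16 (SE 0.057, edgeR adjusted p = 0.0584). Foxh1 had 61.1 and 54.6 CPM with auxin and 57.0 and 55.9 CPM without auxin, which overlap (log2 fold change 0.033, edgeR adjusted p = 0.779). Foxj3 and Foxi3, a factor of ear and skin placodes, overlapped between groups, with log2 fold changes of -0.0049 and -0.099. Foxa3, Foxj1, which drives the genes of motile cilia, Foxn4 and Foxa1 were not called at no more than 5.11 CPM in any library, with log2 fold changes between -0.12 and 0.37. Foxr1, at 12 and 18 fragments with auxin and 15 and 12 without, was not called (log2 fold change 0.079).

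Of the 6 marked members that passed the filter, 5 are given here, with log2 fold changes of 1.39 for Foxe1, 0.37 for Foxn4 and for Foxa1, 0.34 for Foxq1 and -0.61 for Foxp1. Foxe1, a thyroid factor, passed the filter through its auxin libraries alone, with 20 and 16 fragments with auxin against 4 and 9 without auxin. Its groups did not overlap, and edgeR gave an adjusted p of 0.0502, just above the threshold. Leaving out 1 library moved this value to between 0.0276 and 0.241, with calls when no-auxin replicate 2 or auxin replicate 2 was left out; over all 8 alternatives that gave an adjusted p, Foxe1 was called under 6. The other 16 marked members, below the filter, summed to 33 and 79 fragments with auxin against 30 and 27 without auxin. The second auxin library stood farthest from the other 3. Over all genes, 1456 of 5394 marked genes were tested, of which 277 rose and 79 fell, around a median log2 change of 0.24. Of 27574 unmarked genes, 12060 were tested, of which 1481 rose and 1885 fell, around a median of -0.0031. Genes near the filter can pass it through their auxin libraries alone, as Foxe1 did, which favours rises. How many did so was not counted, so no conclusion is drawn from these counts. H3K27me3 in auxin-treated cells was not analysed here, so no change of the mark stands beside these values.

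Genes that act with Fox proteins were read from 9 lists chosen by textbook role, in the same fit. The lists were chosen with earlier results of these data known, so their shares describe them and are no test. Over all tested genes, 13.0% rose and 14.5% fell, and the list counts are to be read beside these shares. The 22 regulators of FOXO in the insulin, PI3K and AKT pathway gave 1 rise (4.55%), 3 falls (13.6%) and 18 genes not called. Their falls were close to the share of all genes, and their log2 changes had a median of -0.014. The rise, Irs1, was lost when no-auxin replicate 1 or either auxin replicate was left out. Among them Sirt1, a deacetylase of FOXO proteins, had 99.6 and 89.3 CPM with auxin and 133.5 and 125.0 CPM without auxin, and fell by 0.46 on the log2 scale (edgeR adjusted p = 0.000753). Of 27 tested FOXO targets, 11 rose (40.7%) and 3 fell (11.1%), and the median log2 change was 0.22. The autophagy kinase Ulk1 had 569 and 596 CPM with auxin and 428 and 450.1 CPM without auxin (log2 fold change 0.41, edgeR adjusted p = 0.000217). The stress-response genes Sesn1 and Sesn3 rose by 0.61 and 0.81 on the log2 scale, and Gadd45a and the pseudokinase gene Trib1 fell by 0.85 and 1.10. Without replicate 1 of the libraries without auxin, or without auxin replicate 2, 7 targets rose.

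The calls in the cell cycle lists were all falls. Of 26 FOXM1 targets of G2 and mitosis, 20 fell (76.9%, beside 14.5% of all tested genes) and 6 were not called. The median log2 change of these targets was -0.29. Mki67, the proliferation antigen, had 249.5 and 243 CPM with auxin and 311 and 328 CPM without auxin, and fell by 0.38 on the log2 scale (edgeR adjusted p = 0.000402). Bub1b, a spindle checkpoint kinase gene, fell by 0.37, and Ccna2, which encodes cyclin A, by 0.35. The DREAM and MuvB complexes hold cell cycle genes off or pass them to FOXM1. Of 14 genes in the list of DREAM and MuvB partners, which also holds Ccna2, 7 fell (50.0%) and none rose. Among them Mybl2 fell by 0.37 and E2f4 by 0.42. All of these genes were above 1 CPM without auxin.

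The developmental lists held calls in both directions. Beside 13.0% rises and 14.5% falls over all tested genes, the FOXH1 list had 21.4% and 14.3%. The FOXC and FOXF list had 33.3% rises and 20.0% falls, and the FOXA2 list 18.2% and 9.09%. Falls in the FOXH1 list were close to the share of all genes. Of 14 tested FOXH1 partners and Nodal targets, 3 rose and 2 fell. Nodal had 255 and 282 CPM with auxin and 186 and 194 CPM without auxin (log2 fold change 0.50, edgeR adjusted p = 0.000165), and Gsc, its target in the organizer, rose by 1.22 on the log2 scale. Eomes, the mesendoderm factor, had 19.3 and 21.7 CPM with auxin and 56.1 and 58.2 CPM without auxin, and fell by 1.48 (edgeR adjusted p = 1.24e-06), and the Nodal coreceptor gene Tdgf1 fell by 0.40. Of 15 tested FOXC and FOXF partners, 5 rose and 3 fell, and 2 rose without replicate 1 of the libraries without auxin. Bmp4 had 8.55 and 8.67 CPM with auxin and 36.9 and 37.2 CPM without auxin, a level 4.29-fold lower (edgeR adjusted p = 3.67e-07), and the Hedgehog genes Ptch1 and Hhip rose by 0.56 and 1.28. Of 11 tested genes of the FOXA2 axis, 2 rose and Apob alone fell, by 0.96; without auxin replicate 1, 6 rose, and without any of the other 3 libraries, 1 did. The primitive endoderm markers, which share tissue with this axis, summed to 907 and 844 CPM with auxin and 780.4 and 731 CPM without auxin, with 4 of 11 tested genes higher (1 without replicate 2 of the libraries without auxin). These 4 rises were 36.4% of the primitive endoderm markers tested, beside 13.0% of all genes. The part of these markers in the values of the FOXA2 list was not tested.

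Most calls in the corepressor lists were falls. They took 25.0% of the FOXP and 46.7% of the FOXK partners tested, beside 14.5% of all genes. Of 12 tested FOXP partners, 3 fell and none rose. Ctbp2, a corepressor, had 209.9 and 199 CPM with auxin and 299 and 291 CPM without auxin, and fell by 0.53 on the log2 scale (edgeR adjusted p = 4.55e-05), and the Groucho family gene Tle4 fell by 0.46. Of 15 tested FOXK partners, 7 fell and 1 rose, and 4 fell without replicate 1 of the libraries without auxin. The rise, Kdm1b, was lost when either no-auxin replicate was left out. The scaffold gene Sin3a had 199.7 and 192 CPM with auxin and 244 and 241 CPM without auxin, and fell by 0.31 (edgeR adjusted p = 0.00118). Hcfc1 and Asxl1, both of the BAP1 complex, fell by 0.27 and 0.29. Over the 9 lists together, 23 of 151 tested genes rose (15.2%) and 46 fell (30.5%), with a median log2 fold change of -0.069. A gene may stand in more than 1 list.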

How the data were processed

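For the 4 RNA libraries the authors deposited a table of raw fragment counts. Per the file headers, the authors counted over exons on the reverse strand with featureCounts 1.6.3 and an mm10 annotation; the submitters' processing notes name STAR 2.6.1d. Strand was used in counting, which separates antisense neighbours; reads shared by similar genes were not resolved. Each deposited peak list gives, per broad peak of 1 unpooled sample, a fold enrichment, a −log10 q and a score from the authors' peak caller; scores were not used. Bowtie2 2.4.1 and MACS2 2.1.1 stand in the submitters' processing notes. Neither the peaks' control library nor their cutoff is given in the sources used here, and the depth of the chromatin libraries is unknown.

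The counts went into edgeR 4.0.16 under R 4.3.3 (TMM factors, filterByExpr, quasi-likelihood test, two-sided, Benjamini-Hochberg adjusted p under 0.05 over 13522 genes, no replicate block). The fit was tested on simulated counts with known changes. CPM and per-length levels use TMM-scaled library sizes. Each standard error is the size of the log2 fold change divided by the root of F. Chi-square over its degrees of freedom between replicates was 11.1 with auxin and 3.86 without, so none was treated as one library deposited again. The 5′ end of a gene is the outermost annotated start in the table. Every called Fox gene is named, with uncalled ones above 1 CPM; from other lists, names were drawn from up to 3 called genes per direction with the smallest p. Values of 1 member are not reported here. Members and lists were chosen with earlier results of these data known. Alternatives were RLE and upper-quartile factors, a looser filter, DESeq2 1.42.0, a replicate block, each library left out, and other windows, overlaps and q thresholds for peaks.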

Additional observations from a re-analysis of the deposited data

How the results depend on the processing

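Foxd1, Foxd3, Foxk1, Foxn3, Foxo6, Foxp1 and Foxp4 kept their call and direction under all 9 alternatives of the expression test; Foxo3 kept it under 7. The count of 5 falls held except with the block, and the count of 3 rises became 5 with a filter of 1 read in any library and 2 to 5 when each library was left out. Replicate numbers are not stated to pair libraries, and same-numbered libraries deviated together with a correlation of 0.227 over genes; with the replicate block 7 Fox genes rose and 7 fell (calls gained include Foxm1, edgeR adjusted p = 0.000907, Foxo1, Foxn2, Foxj2 and Foxe1), 2972 of all genes rose and 3177 fell, and 36 partner genes rose. DESeq2 called 949 rises over all genes and 13 among the partner lists, against 1759 and 23. Leaving out each library gave 1102 to 1726 rises and 1110 to 1882 falls over all genes and 12 to 24 rises among the partners. Over single named genes, 606 results were the same, 41 lost and 14 gained their call. Marks depended most on window and threshold. With 500 bp on either side, CUT&RUN marked 8 (18.2%) and both lists 4 (9.09%) Fox genes, beside 10.1% and 3.51% of all genes. With 2 kb, they marked 20 (45.5%) and 15 (34.1%), beside 17.3% and 9.18%. With 5 kb, chosen after seeing the data, ChIP-seq marked 25 (56.8%), CUT&RUN 27 (61.4%) and both 22 (50.0%), beside 18.1%, 24.0% and 14.1%. Peaks with a −log10 q of at least 3 marked 5, 2 and 0, beside 1.30%, 0.567% and 0.0698% of all genes. The motif TGTTTA in place of TGTTTAC was found in 5 entries of 3 genes. Causes were not tested. Genes under about 10 fragments per library were left out by the chosen filter.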

Other observations

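Foxl2os, the noncoding gene next to Foxl2 and the one Fox-named antisense gene in the table, had 5 and 5 fragments with auxin and 2 and 6 fragments without auxin, below the expression filter. The TATAAA sequence, searched on both strands, occurred in 3 of 33 Fox promoter entries (9.09%), beside 13.6% of all entries. Over all tested genes, 13.0% rose and 14.5% fell with auxin, beside 28.6% and 28.6% of the neuroectoderm markers tested. Of the neuroectoderm markers, 2 of 7 tested genes rose and 2 fell (1 rose when any one library was left out and with DESeq2, and 1 fell without no-auxin replicate 1 or auxin replicate 2), and the list summed to 192 and 181 CPM with auxin and 179 and 176 CPM without auxin.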
